A study of Mus musculus with 40 samples.

Results

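The 10 genes described here code for proteins that coat, fuse, fill and empty lipid droplets in liver cells, and they were chosen by name from the genes of the deposited count table, which lists 55487 genes. All 10 passed the filter on low counts. Plin2, Plin4 and Plin5 code for perilipins, which cover the droplet surface, and Cidea and Cidec code for proteins that let droplets fuse and grow. Cd36 takes up fatty acids, Mogat1 makes diacylglycerol from monoacylglycerol, and Pparg is the nuclear receptor that switches on storage genes in fat cells and in fatty livers. Pnpla2 codes for ATGL, the lipase that opens the breakdown of stored triglyceride, and G0s2 codes for a small protein that inhibits ATGL.

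Triglyceride in hepatocytes sits in droplets that form at the endoplasmic reticulum and are then coated, enlarged, or broken down. PLIN2 is the main coat protein of hepatocytes and is lost from cells that hold little fat, whereas CIDEA and CIDEC are low in lean liver and known to be turned on in steatosis. Fatty acids freed from droplets also act as ligands of the receptor PPARA, which drives the genes of fatty acid oxidation.

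RNA was measured in whole livers of female C57BL/6JBomTac mice that were hepatocyte-specific Nampt knockouts (HNKO; Nampt fl/fl with Alb-Cre) or WT littermates (Nampt fl/fl without Cre). Nampt codes for an enzyme that makes NAD from nicotinamide. The albumin promoter drives Cre in hepatocytes, so that other liver cells keep the gene. All mice were 9 weeks old when a purified control diet (PD) was started and were fed it for 3, 6, 12, or 21 days, which the labels list as ages. Day 3 gave 5 libraries of each genotype, day 6 gave 4 of WT and 5 of HNKO, day 12 gave 5 of WT and 6 of HNKO, and day 21 gave 5 of WT and 3 of HNKO, 38 in all. A further 2 HNKO libraries of day 21, numbers 17 and 18, carry the label Failed QC and were left out. The comparison asks whether genes of lipid storage differ between livers with and without hepatocyte Nampt early and late on PD.

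The libraries held 16151037 to 64181492 counts on genes. Nampt itself lay at 4.92 to 6.36 log2 CPM in HNKO and at 5.84 to 7.28 in WT, and fell by 0.83 on the log2 scale averaged over the days (SE 0.12, edgeR adjusted p = 2.61e-06). All 8 hepatocyte markers were detected. Their summed level was 57290 to 120205 CPM in HNKO and 85055 to 143120 in WT. Markers of cholangiocytes summed to 107 to 755 CPM in HNKO and 34.4 to 49.4 in WT, those of macrophages to 248 to 735 in HNKO and 197 to 534 in WT, those of stellate cells and myofibroblasts to 497 to 1386 in HNKO and 562 to 706 in WT, and those of endothelial cells to 525 to 652 in HNKO and 527 to 692 in WT. For the average over the days, 7 of 10 macrophage markers were called higher and 0 lower (median log2 fold change 0.96), 8 of 10 stellate and myofibroblast markers higher and 1 lower (0.73), 6 of 6 cholangiocyte markers higher, and 0 of 8 endothelial markers higher and 3 lower. In bulk liver RNA, fewer cells of a type and less RNA per cell cannot be told apart. Adipoq, a gene of adipocytes, had 20 or more counts in 7 libraries (numbers 26 of WT day 3, 7 of HNKO day 6, 14 and 33 of WT day 12, and 11, 13 and 32 of HNKO day 12). Ckm, a gene of striated muscle, had 10 or more counts in 7 libraries (numbers 23 of HNKO day 3, 11, 13 and 32 of HNKO day 12, 19 and 21 of WT day 21, and 37 of HNKO day 21).

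The order of the levels in WT liver, set per length of merged exons, ran from Plin2 to Cidea. Plin2 lay at 171 ± 51.1 CPM per kb (SD, n = 19 WT libraries over the 4 days) and G0s2 at 90.7 ± 40.9. Cd36 followed at 33.9 ± 12.9, Plin5 at 16.9 ± 4.56 and Pnpla2 at 13.8 ± 3.03. Plin2 exceeded G0s2 in 17 of 19 WT libraries, and Plin5 exceeded Pnpla2 in 14 of 19, so that these neighbours overlap. Pparg lay at 4.03 ± 0.763 CPM per kb, Cidec at 2.05 ± 0.632 and Plin4 at 1.86 ± 0.835, and Cidec exceeded Plin4 in 15 of 19 libraries. Mogat1 at 0.278 ± 0.131 and Cidea at 0.0403 ± 0.0544 CPM per kb were close to the limit of detection. The most and the least abundant member thus differ by several orders of magnitude, and the precision of their fold changes differs accordingly. In HNKO the levels were 126 ± 30.7 CPM per kb for Plin2, 46.1 ± 22.0 for G0s2, 31 ± 8.33 for Cd36, 15.7 ± 4.38 for Plin5 and 12.6 ± 3.3 for Pnpla2 (n = 19 HNKO libraries).

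**Figure D1:**
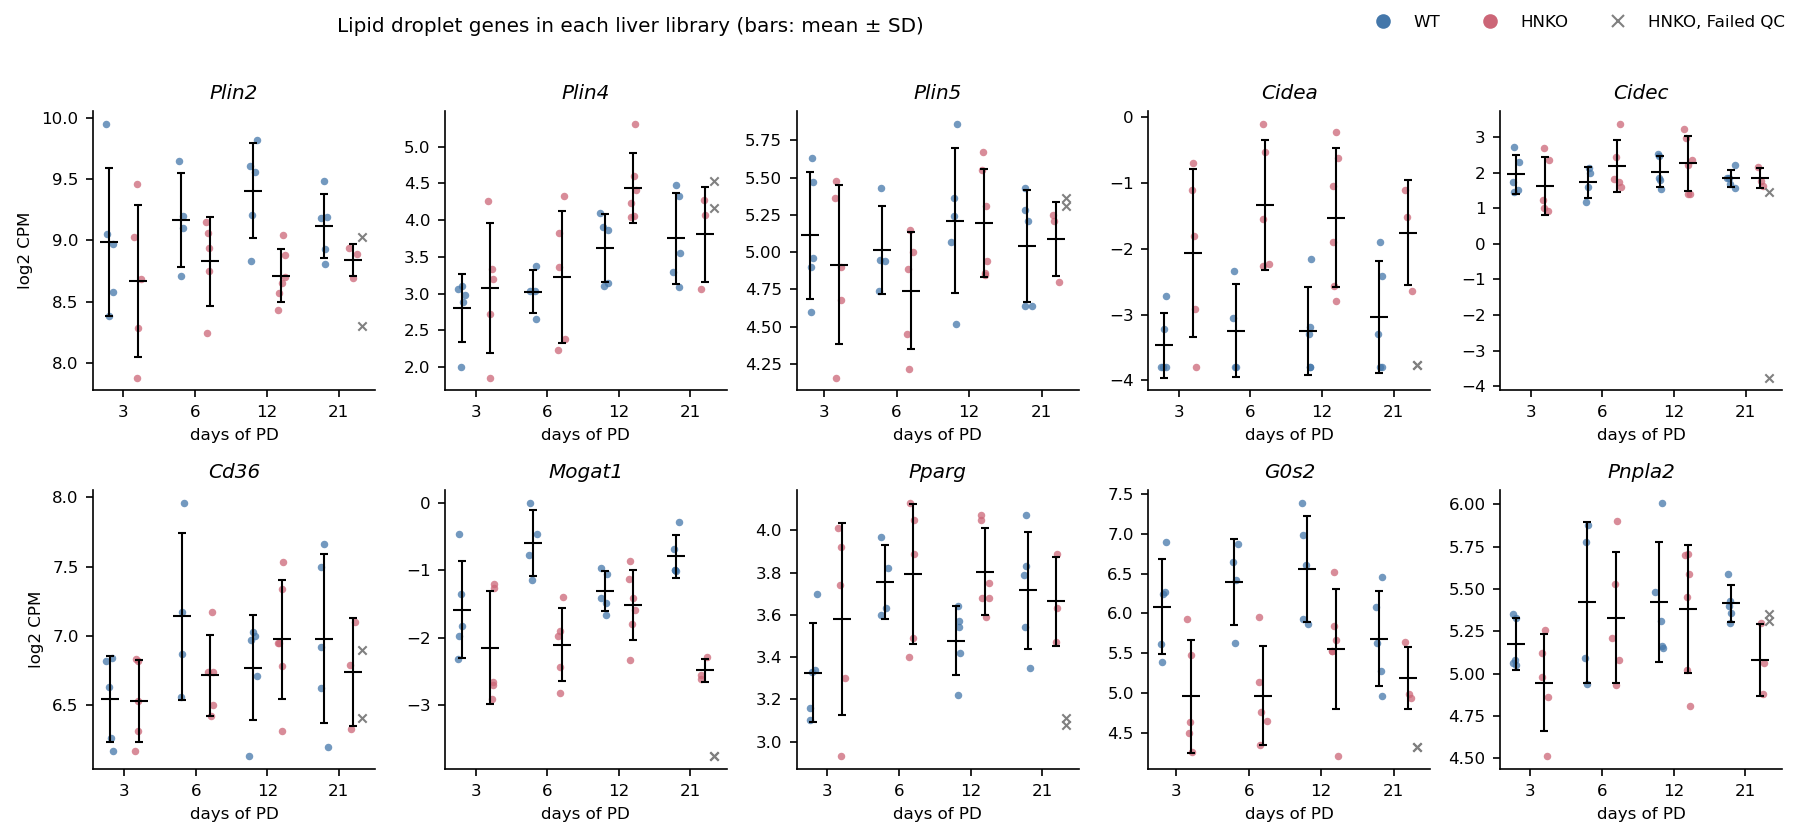
Level of each of the 10 genes (log2 CPM, prior count 2) against days of PD. Each point is 1 library, bars are mean ± SD, and grey crosses are the HNKO libraries 17 and 18, labelled Failed QC; the lower G0s2 and Mogat1 points and the higher Cidea points of HNKO are visible at day 6.

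Averaged over the 4 days, G0s2, Mogat1 and Plin2 fell in HNKO, whereas Plin4, Plin5, Cidec, Cd36, Pparg and Pnpla2 did not pass the test. Cidea passed it in the higher direction, but Cidea reached the filter level only in HNKO libraries, so that its calls are given as a description and support nothing about the set. The counts of members called by edgeR's quasi-likelihood test were 0 of 10 at day 3, 3 at day 6, 1 at day 12, 1 at day 21, and 4 for the average. Among all 20297 genes tested, 4.66% were called at day 3, 12.8% at day 6, 7.82% at day 12, 3.12% at day 21, and 36.4% for the average. The share of 4 in 10 for the average is near this background, so that the number of calls is not a result about these genes as a set. The median log2 fold change of the 10 was -0.13 for the average, beside -0.01 over all genes tested, and 6 of the 10 values were below 0. By direction, the members called for the average were 1 higher and 3 lower, where 19.2% of all genes were called higher and 17.3% lower.

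**Figure D2:**
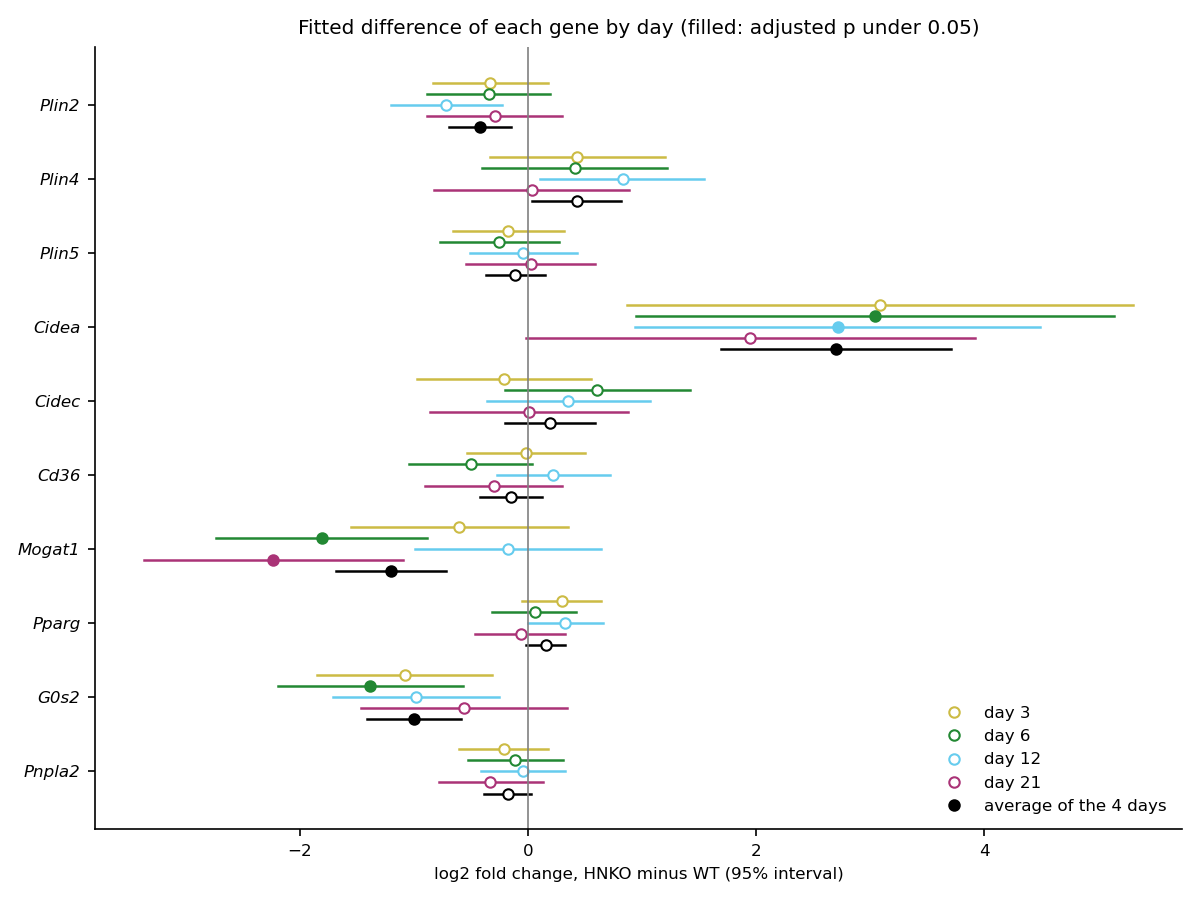
Fitted log2 fold change of HNKO over WT (x axis) for each gene (y axis), at each day and averaged over the 4 days. Lines are 95% intervals of the edgeR fit and filled points passed an adjusted p of 0.05; the averaged values of Cidea (2.7), Mogat1 (-1.20), G0s2 (-1.0) and Plin2 (-0.42) are filled.

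G0s2, the inhibitor of ATGL, lay under the WT mean of the day in each of the 19 libraries from HNKO livers. At day 3, G0s2 lay at 5.62, 6.24, 6.90, 5.39 and 6.27 log2 CPM in WT and at 5.93, 4.63, 5.47, 4.26 and 4.49 in HNKO. At day 6 the values were 6.64, 6.87, 6.42 and 5.63 in WT and 5.95, 5.13, 4.76, 4.34 and 4.65 in HNKO. The groups overlapped at both days, with 2 HNKO libraries above the lowest WT value at day 3 and 1 at day 6. At day 12 the WT values were 7.39, 6.61, 6.99, 5.86 and 5.93, and the 6 HNKO libraries ran from 4.20 over a median of 5.59 to 6.52. At day 21 the values were 5.63, 6.46, 5.28, 6.08 and 4.96 in WT and 4.94, 5.64 and 4.98 in HNKO, with broad overlap. G0s2 fell by 1.38 on the log2 scale at day 6 (SE 0.40, edgeR adjusted p = 0.0194). The log2 fold change was -1.08 at day 3 (adjusted p = 0.0889 in the same edgeR test), -0.98 at day 12 (0.0818) and -0.56 at day 21 (0.551), none of which passed the test. Day 3 passed with the label series (library numbers 1 to 21 or 22 to 41) as a covariate (-1.28, edgeR adjusted p = 0.0341), and day 12 passed with a score of circadian clock genes as a covariate (-1.12, 0.0288) and without HNKO library 36 (-1.23, 0.0345). These were 1 of 50 alternatives at day 3 and 2 of 50 at day 12, and the others did not pass. The log2 fold change ran from -1.39 to -0.83 at day 3 (edgeR or DESeq2 adjusted p up to 0.271) and from -1.23 to -0.73 at day 12 (up to 0.379). Averaged over the days G0s2 fell to 0.500 of the WT level (log2 fold change -1.0, 95% interval -1.41 to -0.59, edgeR adjusted p = 1.68e-04). Background at day 6 was 4.37% of genes called lower. The adjusted p of day 6 rose above 0.05 without WT library 8 (log2 fold change -1.32, edgeR adjusted p = 0.0528) or 10 (-1.22, 0.071), without HNKO library 29 (-1.29, 0.0738) or 30 (-1.22, 0.0584), and without the libraries with adipocyte RNA (-1.40, 0.0512). The fold change itself stayed between -1.71 and -1.22 whichever library was left out. Lamb3, which has a median of 83.5 counts, overlaps G0s2 on the other strand, and whether the counting used the strand is not given in the sources used here.

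Pnpla2, the lipase that G0s2 inhibits, stayed within 4.94 to 6.01 log2 CPM in WT and 4.51 to 5.90 in HNKO. Its averaged log2 fold change was -0.17 (95% interval -0.38 to 0.03, edgeR adjusted p = 0.192). With the clock score as a covariate the value was -0.18 and passed the test (edgeR adjusted p = 0.0325), and without the libraries with adipocyte RNA it was -0.29 (0.0423). The difference in log2 CPM between G0s2 and Pnpla2 within a library had medians of 0.89, 0.93, 0.98 and 0.23 in WT at days 3, 6, 12 and 21, and of -0.35, -0.43, -0.05 and 0.10 in HNKO. It is not set per length, so that its sign does not show which RNA was more abundant. Per length, the mean level in HNKO was 46.1 CPM per kb for G0s2 and 12.6 for Pnpla2. At day 6 the difference in log2 CPM ran from 0.69 to 1.34 in WT and from -0.87 to 0.42 in HNKO, without overlap. It ran from 0.34 to 1.57 in WT and from -0.86 to 0.96 in HNKO at day 3, from 0.62 to 1.91 and from -0.82 to 1.71 at day 12, and from -0.63 to 1.03 and from -0.12 to 0.34 at day 21. The median was lower in HNKO at each day, the genotypes overlapped at all days but day 6, and a difference between days was not tested. The share of other gene pairs without overlap at day 6 was not computed.

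Mogat1 was the member with the lowest counts after Cidea, with 4 to 28 counts per library in WT and 2 to 17 in HNKO. At day 6 it had 15, 10, 19 and 9 counts in WT and 4, 9, 3, 2 and 7 in HNKO. At day 21 it had 14, 11, 28, 17 and 11 counts in WT and 3, 3 and 3 in HNKO. On the log2 CPM scale the groups did not overlap at these 2 days, at -1.15 to 0.00 in WT against -2.82 to -1.40 in HNKO at day 6, and -1.01 to -0.28 against -2.61 to -2.29 at day 21. Of all genes tested, 12.8% did not overlap at day 6 and 13.9% at day 21, against 4.11% at day 3 and 4.79% at day 12. At day 3 the counts were 4, 4, 11, 6 and 8 in WT and 10, 8, 2, 2 and 2 in HNKO, and at day 12 they were 12, 11, 6, 8 and 10 in WT and 4 to 17 (median 8) in HNKO, and both days overlapped.

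Mogat1 fell by 1.80 on the log2 scale at day 6 (SE 0.46, edgeR adjusted p = 0.00780) and by 2.23 at day 21 (SE 0.56, edgeR adjusted p = 0.0226), where 0.916% of genes were called lower. The log2 fold change was -0.60 at day 3 (edgeR adjusted p = 0.494) and -0.17 at day 12 (0.836). Averaged over the days it was -1.20 (95% interval -1.68 to -0.72, edgeR adjusted p = 1.47e-04). By pooled counts, HNKO had 0.324 of the WT rate at day 6 (exact 95% interval 0.193 to 0.531), 0.246 at day 21 (0.109 to 0.491), and 1.03 at day 12 (0.686 to 1.56), with intervals that cover counting error only. The values thus differed between days, yet the interaction of genotype and day gave an unadjusted p of 0.0116 and an adjusted p of 0.975 in edgeR, so that a difference between days was not shown. The day 6 call passed in 48 of 48 alternatives that kept the gene. The day 21 call was lost without HNKO library 37 (log2 fold change -2.16, edgeR adjusted p = 0.303) or 40 (-2.11, 0.0755), and without the libraries with muscle RNA, where the log2 fold change stayed at -2.23 (0.536). Of stretches of 51 bases in Mogat1 transcripts, 9.89% occur in the overlapping gene BC035947, which has a median of 1 count.

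Cidea was almost silent in WT and detected at low counts in most HNKO livers. At day 3 it had 0, 0, 0, 1 and 2 counts in WT and 15, 5, 0, 2 and 9 in HNKO. At day 6 it had 0, 0, 1 and 3 counts in WT and 6, 4, 37, 11 and 5 in HNKO, without overlap on the log2 CPM scale. The gap lay between 3 counts in WT library 28 (-2.33 log2 CPM) and 4 counts in HNKO library 7 (-2.26). Of all genes tested, 12.8% did not overlap at day 6. At day 12 the counts were 0, 1, 0, 1 and 5 in WT and 2 to 19 (median 10) in HNKO, and at day 21 they were 0, 3, 2, 0 and 5 in WT and 12, 2 and 9 in HNKO, and the groups overlapped at both days. In all, 17 of 19 WT libraries and 5 of 19 HNKO libraries were at or under 3 counts. No WT library and 8 HNKO libraries reached the level of the filter (0.378 CPM), so that Cidea entered the test only through the group where it is high, and a difference was built into its entry.

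By pooled counts Cidea was 10.8-fold higher in HNKO at day 3 (31 against 3 counts, exact 95% interval 3.37 to 55.2), 10.8-fold at day 6 (63 against 4, 4.03 to 41, with 37 of the 63 in library 29), 7.58-fold at day 12 (59 against 7, 3.46 to 19.7) and 5.10-fold at day 21 (23 against 10, 2.33 to 12.0). These intervals cover counting error only. The edgeR fit of Cidea, given as a description, had a log2 fold change of 3.04 at day 6 (SE 1.03, adjusted p = 0.0463) and of 2.72 at day 12 (SE 0.88, 0.0495), where 8.42% and 4.56% of genes were called higher. With no filter on low counts, the log2 fold changes were 3.05 and 2.73 and neither day passed (edgeR adjusted p = 0.0696 and 0.0714). The averaged value was 2.7 (SE 0.50, edgeR adjusted p = 6.43e-05) and the same with no filter (4.85e-05), and 18 of 19 HNKO libraries were above the WT mean of their day. At day 3 the log2 fold change was 3.09 (edgeR adjusted p = 0.0889; 3.40 and 0.0429 without HNKO library 4) and at day 21 it was 1.95 (0.282). The calls of single days rested on few counts and lay close to the threshold. When libraries were left out in turn, the day 6 call was lost for 11 of 38 (3, 8, 10, 13, 15, 25, 27, 29, 30, 33 and 40; edgeR adjusted p up to 0.2) and the day 12 call for 22 of 38 (1, 3, 5, 6, 8, 10, 11, 12, 13, 14, 15, 16, 19, 20, 21, 23, 24, 25, 27, 30, 33 and 40; up to 0.104). The log2 fold change then ran from 2.48 without HNKO library 29 to 4.35 without WT library 28 at day 6, and from 2.39 without HNKO library 12 to 3.93 without WT library 34 at day 12. At day 12 the log2 fold change was 2.12 (edgeR adjusted p = 0.312) without the libraries with adipocyte RNA and 2.64 (0.152) without those with muscle RNA, which hold 3 HNKO libraries of that day, 2 of them among its 3 highest for Cidea. The average was 2.84 (3.59e-04) and 2.34 (0.00345) without these libraries. Both Failed QC libraries had 0 counts of Cidea.

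Plin2, the main coat protein of hepatocyte droplets, had 5741 to 32081 counts per library. At day 12 it lay at 9.61, 9.56, 8.83, 9.21 and 9.82 log2 CPM in WT, and the 6 HNKO libraries ran from 8.43 over a median of 8.68 to 9.04. The groups overlapped through 1 WT library (8.83). The log2 fold change at day 12 was -0.72 (SE 0.24, edgeR adjusted p = 0.0559), which did not pass the test, and an exact permutation test of the 5 WT and 6 HNKO values, two-sided and not adjusted, gave p = 0.0130 (the smallest it can give is 0.00433). The same permutation test at day 12 gave p = 0.00866 for Pparg, 0.0130 for Plin4, 0.0173 for Cidea and 0.0303 for G0s2, and 0.442 or more for the other members. The share of all genes that pass it was not computed. DESeq2 called Plin2 at this day (adjusted p = 0.0331), as did edgeR with only the day's groups (log2 fold change -0.70, adjusted p = 0.0348), without WT library 16 (-0.83, 0.0366), and without library 1, 2, 4 or 24 of day 3 (-0.72 to -0.71). These were 7 of 50 alternatives, and the others did not call Plin2 at day 12. Over all of them its log2 fold change ran from -0.83 to -0.50, with an edgeR adjusted p of up to 0.335. At days 3, 6 and 21 the values were -0.33, -0.34 and -0.29 (edgeR adjusted p = 0.486, 0.442 and 0.661). Averaged over the days Plin2 fell to 0.748 of the WT level (log2 fold change -0.42, 95% interval -0.69 to -0.15, edgeR adjusted p = 0.0114), and 17 of 19 HNKO libraries were below the WT mean of their day. This call was lost without the libraries with adipocyte RNA (-0.40, edgeR adjusted p = 0.0516) and without those with muscle RNA (-0.41, 0.0686). Of stretches of 51 bases in Plin2 transcripts, 2.48% are shared with Gm12551.

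The bases before the start of the 3 members that fell on average are shown because these are the members called lower between genotypes; none of the 3 pairs among them passed the test of correlation between livers. They are 250 bases each, taken from RefSeq on GRCm38.p6, read 5′ to 3′ on the strand of the gene and ending at the base before the RefSeq start. The GENCODE genes used for exon lengths start inside these stretches, at 78510991 for Mogat1, at 193273217 for G0s2, and at 86670060, the last base printed, for Plin2. The end of each stretch is thus part of the gene in that model. Capitals mark AGGTCA, the half-site of nuclear receptors such as PPARA and PPARG, and CCAAT, on either strand.
Plin2, chr4:86670060-86670309, minus strand: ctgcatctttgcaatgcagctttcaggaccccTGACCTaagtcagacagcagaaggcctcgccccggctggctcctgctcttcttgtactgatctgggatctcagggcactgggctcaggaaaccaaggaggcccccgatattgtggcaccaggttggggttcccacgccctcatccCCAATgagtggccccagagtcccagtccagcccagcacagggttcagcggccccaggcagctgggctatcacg
G0s2, chr1:193273189-193273438, minus strand: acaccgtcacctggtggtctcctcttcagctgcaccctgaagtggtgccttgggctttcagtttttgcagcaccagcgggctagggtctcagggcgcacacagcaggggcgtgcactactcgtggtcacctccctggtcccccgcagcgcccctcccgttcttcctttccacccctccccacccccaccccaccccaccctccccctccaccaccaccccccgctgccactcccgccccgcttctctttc
Mogat1, chr1:78510810-78511059, plus strand: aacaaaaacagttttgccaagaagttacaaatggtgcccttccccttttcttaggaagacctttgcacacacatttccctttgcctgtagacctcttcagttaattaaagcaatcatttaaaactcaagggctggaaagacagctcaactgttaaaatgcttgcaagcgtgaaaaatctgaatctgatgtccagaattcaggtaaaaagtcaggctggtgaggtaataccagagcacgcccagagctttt
In the Plin2 promoter, AGGTCA lies on the opposite strand at -218 to -213 and CCAAT at -73 to -69, counted back from the start. AGGTCA occurs in 14% and CCAAT in 33.8% of 32851 promoter stretches of this length. Neither motif, nor TATAAA (12.4% of promoters) or a pair of AGGTCA in direct repeat with 1 base between them (0.0335%), both strands searched, is in the stretches of G0s2 and Mogat1. The GC content was 61.6% for Plin2, 67.2% for G0s2 and 41.2% for Mogat1, against a median of 52.4% over all promoters, so that Plin2 and G0s2 lie above that median and Mogat1 below it.

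The other coat and fusion proteins gave no call. Plin4, a perilipin best known from fat and muscle, lay at 3.03, 3.38, 3.03 and 2.66 log2 CPM in WT and 3.36, 4.33, 3.82, 2.24 and 2.39 in HNKO at day 6, and at 3.86, 3.15, 3.10, 3.91 and 4.10 in WT and 4.04 to 5.31 (median 4.32) in HNKO at day 12. Its log2 fold change was 0.83 at day 12 (95% interval 0.11 to 1.54, edgeR adjusted p = 0.138) and 0.43 averaged over the days (0.04 to 0.82, 0.0807), and the average passed the test with all 40 libraries (0.47, 0.0464) and without HNKO library 4 (0.48, 0.0383), 30 (0.49, 0.0412), 31 (0.47, 0.0478) or 40 (0.52, 0.0409). These were 5 of 49 alternatives, and the others did not pass. Without the libraries with adipocyte RNA the average was 0.43 (edgeR adjusted p = 0.132), and without those with muscle RNA it was 0.40 (0.223). The mean of Plin4 in WT was 2.81 log2 CPM at day 3 and 3.75 at day 21 (SD 0.46 and 0.62). The mean in HNKO was 3.08 at day 3, 4.44 at day 12 and 3.81 at day 21 (SD 0.88, 0.47 and 0.64), and the test of a change over the days gave an edgeR adjusted p of 0.0539 in HNKO and 0.186 in WT. Hdgfl2, with a median of 654 counts, overlaps Plin4 on the other strand. Plin5, which ties droplets to mitochondria, had a narrow interval around 0 for the average (-0.11, 95% interval -0.37 to 0.15, edgeR adjusted p = 0.540), and ran from 4.52 to 5.86 log2 CPM in WT and from 4.16 to 5.67 in HNKO.

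Cidec, the other fusion protein, ran from 1.18 to 2.74 log2 CPM in WT and from 0.94 to 3.38 in HNKO. The highest HNKO values, 3.38 in library 7 at day 6 and 3.23 and 2.99 in libraries 11 and 32 at day 12, came from libraries with adipocyte RNA, as did the highest WT value of day 3 (2.74 in library 26) and of day 12 (2.52 in library 14). Others went the other way. HNKO libraries 2 and 23 of day 3 lay at 2.69 and 2.35 with 0 Adipoq counts. Libraries 33 and 13, with adipocyte RNA, deviated from their group means by -0.18 and 0.09. The averaged log2 fold change of Cidec was 0.19 (95% interval -0.20 to 0.59, edgeR adjusted p = 0.477) and -0.01 without the libraries with adipocyte RNA (0.966). Cd36 lay at 6.13 to 7.96 log2 CPM in WT and 6.17 to 7.53 in HNKO, with an averaged value of -0.15 (95% interval -0.42 to 0.12, edgeR adjusted p = 0.410). Pparg lay at 3.10 to 4.07 in WT and 2.93 to 4.13 in HNKO, with an averaged value of 0.16 (-0.02 to 0.33, 0.173), and at day 12 of 0.33 (0.00 to 0.66, 0.200). A missed threshold does not show that the genotypes were equal in these genes, and the intervals give the differences that remain possible.

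No member was called at day 3, where 2.95% of all genes were called higher and 1.71% lower, and DESeq2 called 0 members and 1428 of 20297 genes. At an unadjusted p under 0.05 in edgeR there were 2 of 10 members (Cidea and G0s2), beside 20.9% of all genes, so that this share is near the background. At day 12, 3.27% of genes were called lower and 0 members, and at day 21, 2.21% were called higher and 0 members. The interaction of genotype and day was called for 0 of 20297 genes (0%), with 966 genes and 1 member (Mogat1) at an unadjusted p under 0.05 in edgeR. A change over the days was called for 5.84% of genes in WT and 7.90% in HNKO, and for 0 of the 10 members in either, with 1 member in each (Plin4) at an unadjusted p under 0.05, beside 21.2% of all genes in WT and 22.9% in HNKO. Libraries numbered 1 to 21 and 22 to 41 form 2 series that run through the days. Within a day and series, 7 comparisons of HNKO with WT could be made, with 2 or 3 libraries a group, since the low-numbered series has no usable HNKO library at day 21. The difference of mean log2 CPM ranged from -1.81 to -0.33 for G0s2, from -0.88 to 0.00 for Plin2, and from 0.30 to 2.96 for Cidea. For Mogat1 it was below 0 in 5 of 7 and ranged from -1.85 to 0.42, so that Mogat1 did not keep its direction in every series.

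Members also varied together between livers of the same group. Over the 38 libraries, deviations from the group mean were compared for all 45 pairs, with 100000 permutations within groups. Of these, 7 pairs had a Benjamini-Hochberg adjusted p under 0.05 for Pearson's r, all positive, and 6 of them, the pairs without Cidea, also for Spearman's rho. Plin2 and Plin5 had r = 0.82 (permutation p = 1e-05, the smallest these permutations can give, adjusted p = 2.25e-04) and rho = 0.81 (1e-05, adjusted 4.50e-04), and r = 0.80 without the 2 libraries farthest from the median of Plin2. Plin4 and Plin5 had r = 0.72 (p = 1e-05, adjusted p = 2.25e-04) and rho = 0.71 (3.00e-05, adjusted 6.75e-04), and r = 0.67 without 2 libraries. Plin2 and Plin4 had r = 0.57 (p = 9.10e-04, adjusted p = 0.0102) and rho = 0.51 (0.00365, adjusted 0.0411), and r = 0.56 without 2 libraries. The 3 perilipin RNAs thus varied together from liver to liver, although only Plin2 was called between genotypes.

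Cidec and Pnpla2 had r = 0.67 (permutation p = 8.00e-05, adjusted p = 0.00120) and rho = 0.67 (8.00e-05, adjusted 0.00120), and r = 0.60 without the 2 libraries farthest from the median of Cidec. Plin4 and Cidec had r = 0.52 (p = 0.00438, adjusted p = 0.0394) and rho = 0.48 (0.00546, adjusted 0.0450), with r = 0.51 without 2 libraries. With all 40 libraries these were 0.29 and 0.14. Cidec had 0 counts in the Failed QC library 17, and the part of either added library was not tested. Plin2 and Pparg had r = 0.52 (p = 0.00744, adjusted p = 0.0482) and rho = 0.50 (0.00600, adjusted 0.0450), with r = 0.55 without 2 libraries. Plin2 and Cidea had r = 0.46 (p = 0.00750, adjusted p = 0.0482), but rho = 0.45 did not pass (0.0113, adjusted 0.0710), and r without 2 libraries was 0.48. Cidea had 3 or fewer counts in 17 of 19 WT libraries, so that its deviations in WT rest on few counts, here and in the comparison with marker lists. G0s2 and Pnpla2 are partners at the protein level, and G0s2 was in none of the 7 pairs. The points of a pair share a library and its depth, which these correlations do not separate.

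**Figure D3:**
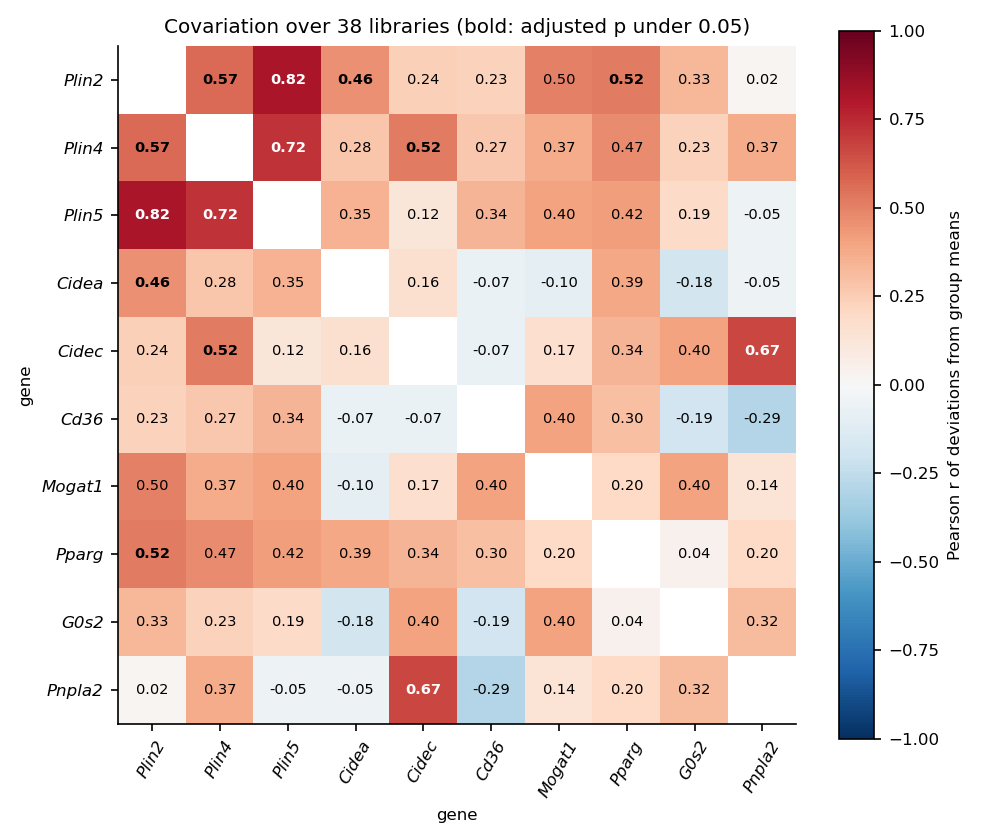
Pearson r between the deviations of each pair of the 10 genes from their group means, over 38 libraries, as colour and number. Bold numbers have an adjusted p under 0.05 over 45 pairs; the block of Plin2, Plin4 and Plin5 holds r of 0.57 to 0.82.

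The deviations were also compared with a clock score (mean log2 CPM of 5 genes on the side of Arntl minus that of 6 genes on the side of Dbp) and with the mean log2 CPM of 5 marker lists, which makes 60 relations. Pnpla2 followed the clock score inversely, with r = -0.74 (permutation p = 1.80e-04, adjusted p = 0.00780) and rho = -0.68 (4.10e-04, adjusted 0.0210), and r = -0.74 without the 2 libraries farthest from the median score. The score ran from -3.06 to 2.89 in WT and from -2.29 to 3.21 in HNKO, and from 1.10 to 1.98 in HNKO at day 3, where the WT libraries ran from -0.55 to 1.55. Cidec followed the 8 adipocyte markers, with r = 0.66 (p = 2.60e-04, adjusted p = 0.00780) and rho = 0.58 (7.00e-04, adjusted 0.0210), and r = 0.59 without 2 libraries. That list shares Fabp4 and Plin1 with other lists used here, and summed to 264 to 1232 CPM in HNKO and 1100 to 2087 in WT with 0 of 8 markers at 0 in all libraries of a genotype. It holds Car3, which fell by 1.19 on the log2 scale (edgeR adjusted p = 7.62e-08), while Adipoq did not pass the test (-0.62, 0.716). Cidea and the 10 macrophage markers had r = 0.61 (p = 0.00149, adjusted p = 0.0298), but rho = 0.54 did not pass (0.00602, adjusted 0.0932), and r was 0.61 without 2 libraries. Pparg and the 10 stellate and myofibroblast markers had r = 0.59 (p = 0.00309, adjusted p = 0.0463), and rho = 0.43 did not pass (0.0215, adjusted 0.129), with r = 0.57 without 2 libraries. Most macrophage and stellate markers were also called higher in HNKO for the average. The part of other cell types in the levels of Cidea, Cidec and Pparg was not tested.

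**Figure D4:**
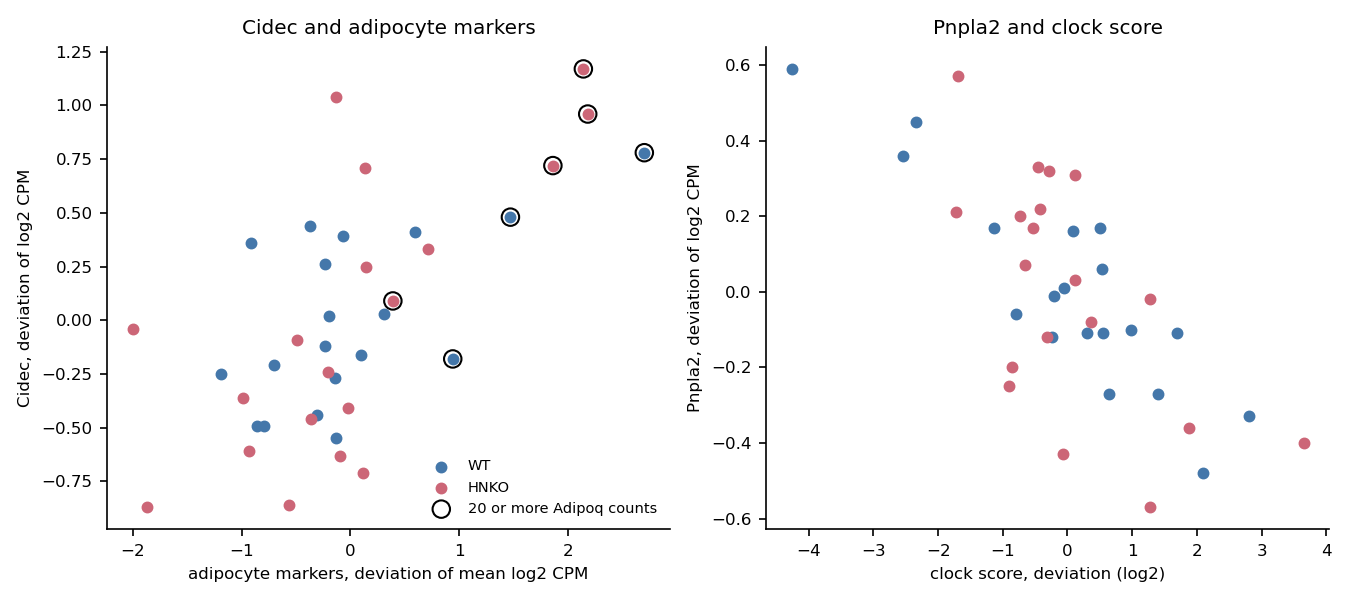
Left, deviation of Cidec against that of the mean adipocyte marker level (log2 CPM), with libraries of 20 or more Adipoq counts ringed; right, deviation of Pnpla2 against that of the clock score. Each point is 1 of 38 libraries, centred on its group; Cidec is high in most ringed libraries (r = 0.66 over all points) and Pnpla2 declines with the score (r = -0.74).

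The genes outside the 10 members whose deviations were most like those of each member were taken from the genes tested, as a description; other members, such as Plin5 for Plin2 (r = 0.82), can lie nearer. For Plin2 they were Fgf21 (r = 0.81), a fasting hormone of the liver, Cda (0.80) and Crat (0.79), which makes acylcarnitines. For Plin5 they were Ppp2r2d (0.78), Tgoln1 (0.76) and Dusp3 (0.74), and for Plin4 Dusp3 (0.78), Hist1h2bf (0.73) and Lrrc27 (0.69). The nearest genes of G0s2 were Hadha (0.72), which codes for a subunit of the mitochondrial trifunctional protein of fatty acid oxidation, Dvl2 (0.70) and Slc25a34 (0.69), and those of Cd36 were Sult2a3 (0.70), the lipoprotein receptor gene Vldlr (0.69) and 4930513N20Rik (0.66). Cidea lay nearest to Mcemp1 (0.80), the monocyte gene Cd14 (0.77) and Spon2 (0.75), and Cidec to the immunoglobulin gene Igkc (0.79), Sspn (0.78) and Igfbp5 (0.76). Pparg lay nearest to 2010003K11Rik (0.76), Maged2 (0.75) and Anxa5 (0.74), Mogat1 to Rab9 (0.66), Grpel2 (0.64) and the phosphatidate phosphatase gene Lpin2 (0.64), and Pnpla2 to Ldb1 (0.83), Fam120a (0.83) and 1810055G02Rik (0.82). Each r is over 38 libraries.

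In other lists of lipid storage and use the genes called for the average were mostly lower in HNKO, beside the 19.2% called higher and 17.3% called lower among all genes. Of the 13 other droplet proteins, 2 were called higher and 5 lower for the average (median log2 fold change -0.13), among them Hsd17b11 (-0.45, edgeR adjusted p = 5.93e-06), Bscl2 (-0.26, 8.49e-05), which codes for seipin, Fitm2 (-0.46, 1.66e-04) and Cideb (-0.25, 0.00381), the CIDE gene of normal hepatocytes. Of 13 genes of triglyceride synthesis, 0 were called higher and 6 lower (median -0.17), with Dgat2, which adds the last acyl chain, at -0.54 (edgeR adjusted p = 4.18e-05), Agpat3 at -0.28 (6.49e-06), Lpin2 at -0.40 (0.00123) and Dgat1 at -0.17 (0.0123). Mogat1 was thus not alone among the acyltransferase genes. Of 10 lipases and lipase cofactors beside Pnpla2, 0 were called higher and 6 lower (median -0.44), led by the carboxylesterases Ces1d (-1.04, edgeR adjusted p = 1.07e-08), Ces1f (-0.68, 2.33e-06) and Ces1g (-0.38, 1.34e-04) and by Mgll (-0.49, 8.84e-04).

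Of 15 genes of fatty acid uptake, binding and activation, 1 was called higher and 9 lower (median -0.38). Acsl1, which activates fatty acids, fell by 0.76 on the log2 scale (edgeR adjusted p = 2.24e-07), Vldlr by 0.95 (1.18e-05) and Fabp2 by 0.53 (1.14e-04), whereas Lpl, a lipase of the vessel wall, rose by 0.85 (2.23e-05). Cd36, which serves the same uptake, was not called. Of 6 genes of VLDL assembly, through which liver exports triglyceride, 1 was called higher and 4 lower (median -0.29), with Sar1b at -0.53 (edgeR adjusted p = 6.27e-06), Mttp at -0.49 (2.01e-05), Apoc3 at -0.32 (0.00119) and Tm6sf2 at -0.26 (0.0257). Of 12 lipid-responsive regulators, 0 were called higher and 8 lower (median -0.23), with Rxrb at -0.17 (edgeR adjusted p = 0.00159), Mlxipl at -0.38 (0.00249), Ppargc1a at -0.35 (0.00392) and Cebpa at -0.29 (0.00461).

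Of 18 targets of PPARA, 1 was called higher and 13 lower (median -0.45). Ehhadh, of peroxisomal oxidation, fell by 0.91 (edgeR adjusted p = 1.89e-08), Vnn1 by 1.04 (2.67e-06), and the fatty acid hydroxylases Cyp4a10 by 1.68 (4.17e-06) and Cyp4a14 by 2.04 (4.23e-06), on the log2 scale. At single days the calls among these targets were 5 lower and 0 higher at day 3, 9 and 1 at day 6, 3 and 0 at day 12, and 1 and 0 at day 21. Fgf21 (0.21, edgeR adjusted p = 0.628), which varied with Plin2 between livers, did not pass the test between genotypes. Over all genes tested, the median log2 fold change of the average was -0.01. Of the 8 hepatocyte markers, 0 were called higher and 2 lower for the average (median log2 fold change -0.24). The 2 were Alb and Ttr, which fell by 0.46 and 0.40 (edgeR adjusted p = 1.57e-04 and 6.78e-04), and the next by p were Cps1 at -0.29 (0.0672) and Serpina1c at -0.26 (0.110). Of the 8 values 7 were below 0, and what part of the lower levels of the hepatocyte genes above goes with these markers was not tested.

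**Figure D5:**
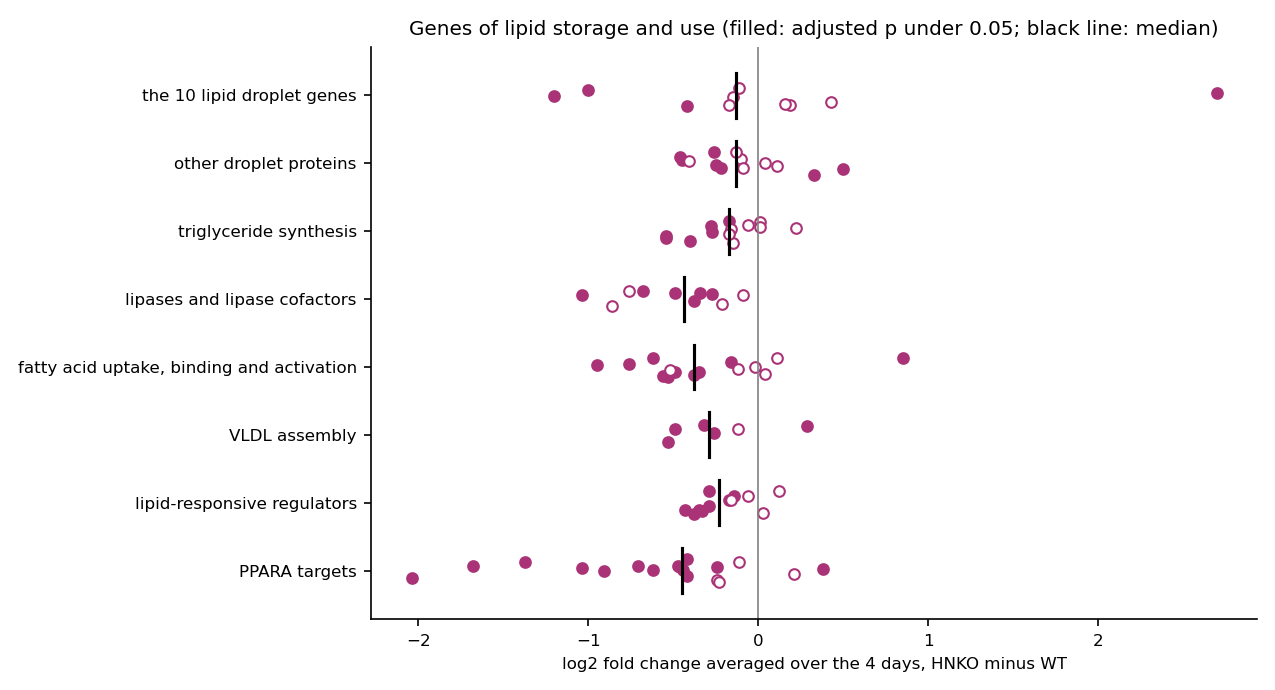
Log2 fold change of HNKO over WT averaged over the 4 days (x axis) for each gene of 8 lists (y axis); filled points have an adjusted p under 0.05 and the black line is the list's median. Medians range from -0.13 for the 10 lipid droplet genes to -0.45 for targets of PPARA, and Cidea (2.7) lies apart on the right.

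The 2 libraries labelled Failed QC differed from the other HNKO libraries of day 21 in several members. They lay lower than these in G0s2 and Mogat1, which is the direction of the HNKO change, and went against it in Cidea. Library 17 had 0 counts of Cidea, Cidec and Mogat1, and library 18 had 0 of Cidea and Mogat1 and 49 of Cidec. G0s2 lay at 4.32 log2 CPM in both, under the 3 used libraries (4.94 to 5.64), and Pparg at 3.08 and 3.11, under 3.47 to 3.89. Plin5 lay at 5.31 and 5.36 and Pnpla2 at 5.31 and 5.35, slightly above the used libraries in both genes. With all 40 libraries the averaged log2 fold changes were -1.08 for G0s2, -1.33 for Mogat1, -0.44 for Plin2 and 2.55 for Cidea, and all 4 passed the test (edgeR adjusted p = 4.20e-05, 1.04e-04, 0.00632 and 2.07e-04).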

How the data were processed

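The members and gene lists were chosen with earlier results of these data known. The authors aligned the reads with STAR 2.7.2b to GRCm38, used featureCounts 1.6.4 to count read pairs, both ends of which had to align, over GENCODE M22 genes, and deposited raw counts per gene without normalization. The table had 0 columns that matched no sample. Symbols, positions and exon lengths came from GENCODE M21 on the same build.

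Genes were filtered with filterByExpr (minimum count 10, minimum total 15), which removed 35190 genes and kept 99.937% of counts. After TMM scaling, 8 groups of genotype and day were fitted by the quasi-likelihood test of edgeR 4.0.16 (R 4.3.3, legacy computation), and p-values were adjusted by Benjamini-Hochberg over 20297 genes. Expression is log2 CPM with a prior count of 2, and level per length is CPM per kb of merged exons. Named were all members, Nampt, up to 4 genes per list with the smallest p of the average, and the 3 genes outside the members most like each member; marker lists are given by summed level. Single members at a day were also compared by exact permutation tests, and correlations by permutation within groups. Scripts were tested on simulated data. Each library came from 1 mouse, and the 74 pairs of libraries of 1 group differed by more than sampling noise (chi-square per degree of freedom 14.0 or more). Alternatives were RLE, DESeq2 1.42.0, 2 filters, all 40 libraries, fits of 1 day's groups alone, robust estimation, the edgeR 4 computation, covariates for the label series or the clock score, and leaving out each library; leaving out libraries with 20 or more Adipoq or 10 or more Ckm counts was chosen after seeing the data.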

Additional observations from a re-analysis of the deposited data

Results flagged for a closer look

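In 70 combinations of a gene and a group of 4 to 6 libraries, 1 library lay far from the others of its group. Plin4 in WT library 1 of day 3 lay at 2.0 log2 CPM, while the other 4 libraries ran from 2.89 to 3.10. The gap was 0.801 of the range of the group. The 70 combinations share libraries and hold genes that vary together, so that they are not independent, and a rate expected by chance was not computed. With 70 combinations searched, 1 such case is not read as a result.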

How the results depend on the processing

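Of 2473 recomputed fold changes of the members, 2357 kept direction and side of the threshold, 50 lost a call, 18 gained one, and 48 changed sign, all of them in values that did not pass the test (0 calls changed sign). The averaged calls passed in 49 of 49 alternatives for G0s2, 48 of 48 for Mogat1, and 47 of 49 for Plin2, which missed without the libraries with adipocyte or with muscle RNA. The averaged call of Cidea passed in 48 of 48, which is given as a description, because Cidea reached the filter level only in HNKO libraries. Plin4 passed for the average in 5 alternatives and Pnpla2 in 2. No paired analysis was possible because the labels give each library its own number. The number of members called was, at day 3, 1, against 0 as reported, when the label series was a covariate. At day 6 it was 1 with at least 10 counts in every library and with only the 2 groups of the day, against 3. At day 12 it was 2 with DESeq2 and with the clock score, and 0 with all 40 libraries, with at least 10 counts in every library, with no filter, and without the libraries with adipocyte or with muscle RNA, against 1. At day 21 it was 0 with at least 10 counts in every library and without the libraries with muscle RNA, against 1. For the average it was 2 with at least 10 counts in every library, against 4. That filter, and the fit of only the 2 groups at day 6, tested 8 members, without Cidea and Mogat1; for the other settings the cause was not tested. For the change over days in HNKO it was 1, against 0, with all 40 libraries, with at least 10 counts in every library, with the clock score, and with the edgeR 4 computation. Leaving out 1 library gave 0 to 1 at day 3, 1 to 3 at day 6, 0 to 2 at day 12, 0 to 1 at day 21, 4 to 5 for the average, and 0 to 1 for the change over days in HNKO. Without centring by group, the correlation of Plin2 with Cidea was -0.04 against 0.46, that of Plin2 with Plin4 0.29 against 0.57, and that of Plin2 with Pparg 0.26 against 0.52. The other pairs that had passed for Pearson's r lay at 0.71 (Plin2 with Plin5), 0.62 (Plin4 with Plin5), 0.63 (Cidec with Pnpla2) and 0.49 (Plin4 with Cidec). With the longest transcript in place of merged exons, the order of the 10 levels in WT was the same, but the levels themselves changed. Plin2 lay at 318 ± 95.1 CPM per kb in place of 171 ± 51.1, and G0s2 stayed at 90.7 ± 40.9. The overlap of neighbours was not recomputed. The log2 fold changes that changed sign were as follows. Without the libraries with adipocyte RNA, Cidec was 0.03 (day 3), -0.27 (day 12) and -0.01 (average), Cd36 0.05 (day 3), Pparg -0.05 (day 6), Plin5 0.27 and Mogat1 0.20 (day 12). Without those with muscle RNA, Cidec was -0.37 (day 12), -0.17 (day 21) and -0.08 (average), Plin5 0.24 (day 12) and -0.14 (day 21), Mogat1 0.18 (day 12) and Plin4 -0.18 (day 21). With the label series, Cd36 was 0.09 (day 3) and Plin5 -0.06 (day 21), with the clock score Plin5 was 0.18 (day 12), and with all 40 libraries Cidec was -0.37 (day 21). Leaving out 1 library, the values spanned 0 for Cidec at day 3 (-0.55 to 0.04) and day 21 (-0.15 to 0.15), Cd36 at day 3 (-0.11 to 0.06), Pparg at day 6 (-0.03 to 0.15) and day 21 (-0.17 to 0.05), Pnpla2 at day 6 (-0.28 to 0.06) and day 12 (-0.11 to 0.14), Plin5 at day 12 (-0.18 to 0.15) and day 21 (-0.07 to 0.17), and Plin4 at day 21 (-0.19 to 0.34). Depth limits Cidea and Mogat1, which had 0 to 37 and 2 to 28 counts per library.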
